A study of Mus musculus with 2 samples.

Results

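The INO80 complex subunits described here are the 9 genes *Ino80*, *Ino80b*, *Ino80c*, *Ino80d*, *Ino80e*, *Actr5*, *Actr8*, *Ruvbl1* and *Ruvbl2*, out of 22359 protein-coding genes whose transcription start sites (TSSs) were examined. They were taken as a named list, and the list was selected on the reads of the same libraries: ChIP-seq reads at the TSSs and along the genes, and the shape and strand separation of the peak at *Ino80d*. Their read counts, peak heights and strand profiles are therefore given as a description, without a test.

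The study asked where Zfp322a, a C2H2 zinc finger protein of mouse ES cells, is located on chromatin. One library was made from E14 mouse ES cells with an anti-ZNF322 antibody (sc-102205, called Zfp322a below), and 1 from the same line with rabbit IgG (sc-2027), the control for chromatin recovered without a specific antibody. Both came from wild type cells grown in serum with LIF, a cytokine that keeps mouse ES cells undifferentiated; the labels give C57BL/6 as the background strain, whereas E14 is otherwise known as a line of 129 origin. With 1 library per antibody, from 1 line, no value has a replicate error, and the intervals below are exact 95% intervals that cover counting error only. Of 5187475 deposited Zfp322a reads, the 4151151 whose mapping quality was 25 or more were counted, and of 4843481 IgG reads, 3877802.

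INO80 is a multi-subunit chromatin remodeller that uses ATP to slide and space nucleosomes and acts on nucleosomes that carry the histone variant H2A.Z. It works in transcription, DNA replication and DNA repair. In mouse ES cells it is known to occupy promoters of pluripotency genes and to be needed for self-renewal. *Ino80* encodes the ATPase on which the other subunits assemble, and *Ruvbl1* and *Ruvbl2* encode AAA+ ATPases that form a ring and also serve in the SRCAP and TIP60 complexes.

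Reads were counted from -1000 to +1000 bp around the TSS of each gene that held the most reads of both libraries (mm9, GENCODE vM1 annotation). To find peaks, each read was extended to 300 bp, and the height is the number of extended reads over a base. A putative binding site needed 9 or more extended Zfp322a reads and 3 times the IgG height, or more, where the IgG height is the highest in the same stretch of 9 or more reads. Only the stretch that holds the highest point of a window was judged. A gene had a site if the window of any TSS of its protein-coding transcripts met the criteria. The 22359 genes had 46015 such TSSs, so genes with more TSSs had more windows judged. The fold per read is the share of all Zfp322a reads that fell in a window, divided by the same share of the IgG reads.

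*Ino80d* had by far the most Zfp322a reads of the 9 genes, 4 genes had a putative binding site, and the folds of the members without a site ran from 0.675 to 1.91. The sites lay at *Ino80d*, *Actr8*, *Ruvbl1* and *Actr5*, that is, 4 of 9 members, while 12.8% of all protein-coding genes (2871 of 22359) met the same criteria. When the libraries were exchanged, 0 of 9 members and 0.496% of all genes (111) had a site. Because the members were chosen on these reads, nothing is read from the share among them.

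**Figure D1:**
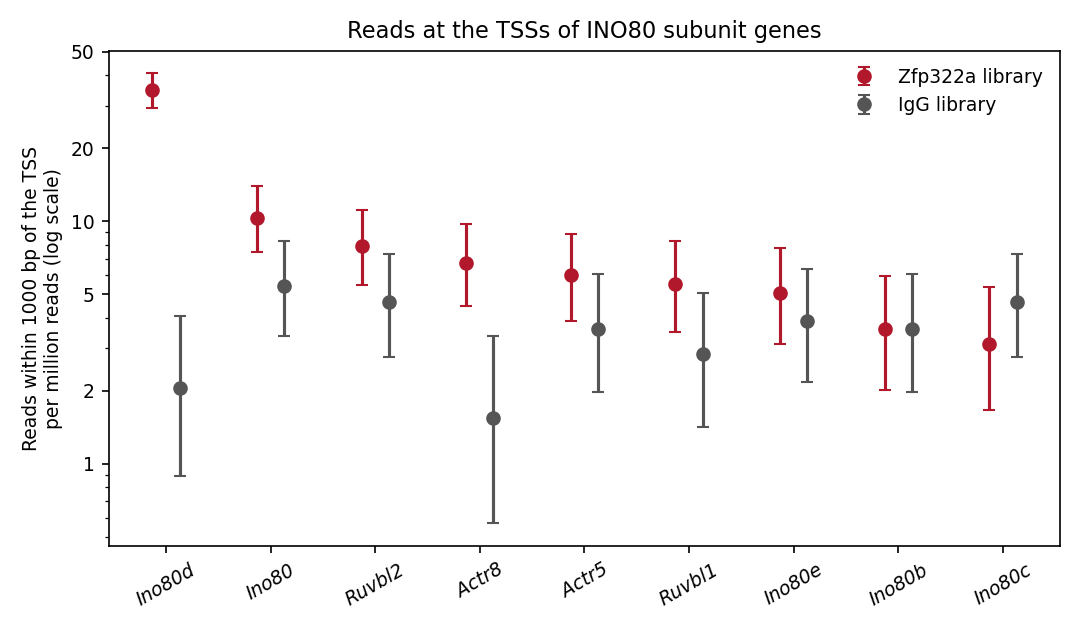
Reads within 1000 bp of the TSS scaled to the library total (RPM, log scale) for the 9 INO80 subunit genes, in order of the Zfp322a value. Points are the single Zfp322a and IgG libraries and bars are exact 95% Poisson intervals of the count; at *Ino80d* the Zfp322a value was 34.7 and the IgG value 2.06, and only at *Ino80d* and *Actr8* do the bars of the libraries not meet.

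*Ino80d* encodes a subunit found in animal INO80 complexes, where it joins the module around the N-terminal part of the ATPase. The gene lies on the reverse strand at chr1:63004992-63161241 and has 4 TSSs of protein-coding transcripts, the one used being at position 63160841. Around it the Zfp322a library had 144 reads and the IgG library 8, which is 16.8 times as many per library total (8.31 to 39.7). With 500 bp on each side of the TSS the fold was 29.9, and with 2000 bp it was 7.47. The most upstream TSS had 141 and 6 reads (21.95-fold), and the others the same counts as the one used.

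The peak of *Ino80d* reached a height of 103 extended reads over an IgG height of 3 in the stretch, and its summit lay upstream, at -36 bp from the TSS. Heights of at least 9 covered 1035 bp, from chr1:63160345-63161379. By reads *Ino80d* ranked 5th of all protein-coding genes, by height 3rd, and by the lower bound of the fold 1st. The genes with more Zfp322a reads, *Pgk1* (740 reads), *Sfi1* (320), *Sall4* (169) and *Patz1* (156), also had 81 to 261 IgG reads, against 8 at *Ino80d*. Of the 146 deposited Zfp322a reads in the *Ino80d* window, 139 had the highest mapping quality of 37 and 1 a quality of 0.

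Sequences are shown for the 4 genes with a putative binding site, to let the base composition in and beside the peaks be seen. They are from the mm9 genome in the direction of transcription. The first is the 30 bp around the middle of the strand medians at *Ino80d* (chr1:63160851-63160880, reverse strand), upstream of the TSS used and in the 5′ UTR of a transcript that starts further upstream, with the letters GGGCGG in capitals. The second holds the most A of any 30 bp in the 250 bp before this TSS (chr1:63160946-63160975, reverse strand), with A in capitals.
Ino80d, middle of the strands: cgggctgggccgcgtaggcaGGGCGGGCGG
Ino80d, A-rich stretch: AAAAAAttAAAAAAAAAAAAAAAAAAAAAA

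The sequence in the middle of the *Ino80d* peak had 86.7% G and C and 5 CpG dinucleotides, and the A-rich stretch, from -134 to -105 bp, had 28 A in 30 bases. The whole TSS window of *Ino80d* had 61.0% G and C, which placed it at percentile 91.1 of all genes (median 51.6%). Its ratio of observed to expected CpG was 0.769, against a median of 0.477.

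Forward and reverse reads were separated at *Ino80d*. Fragments bound at 1 place give forward reads that start on its left and reverse reads that start on its right, so the lag between the median 5′ ends of the strands was measured within 500 bp of the summit. At *Ino80d*, 66 forward and 62 reverse reads had medians 113.5 bp apart, and 79.7% of the reads lay on the side expected of their strand. The sides were divided at the middle of the strand medians of the same reads. The share thus follows in part from the lag and is no separate sign of separation. The densest 100 bp held 49 of the forward reads (74.2%) and 40 of the reverse reads (64.5%). The IgG library had 2 forward and 2 reverse reads there.

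The *Ino80d* peak was also narrow. Its width at 0.5 of the height was 316 bp, close to the 300 bp to which reads were extended, and 105 of its 144 reads (72.9%) lay within 150 bp of the summit. That width ends at a shallow dip: the height was 50 at 90 and 100 bp downstream of the TSS, and 52 from 110 to 150 bp. The width, and any rank by it, rests on this dip. Over the 2524 distinct sites at TSSs of all genes, the median lag was 129 bp (quartiles 59.2 and 210), the median share of reads on the expected side 65.0% and the median width 416 bp. Counting *Ino80d* itself, 249 of these sites were as narrow and 295 had as large a share on the expected side; among the 168 sites with a height of at least 20, the counts were 3 and 21. Among the members, *Ruvbl2*, which had no site, was as narrow, at 309 bp.

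**Figure D2:**
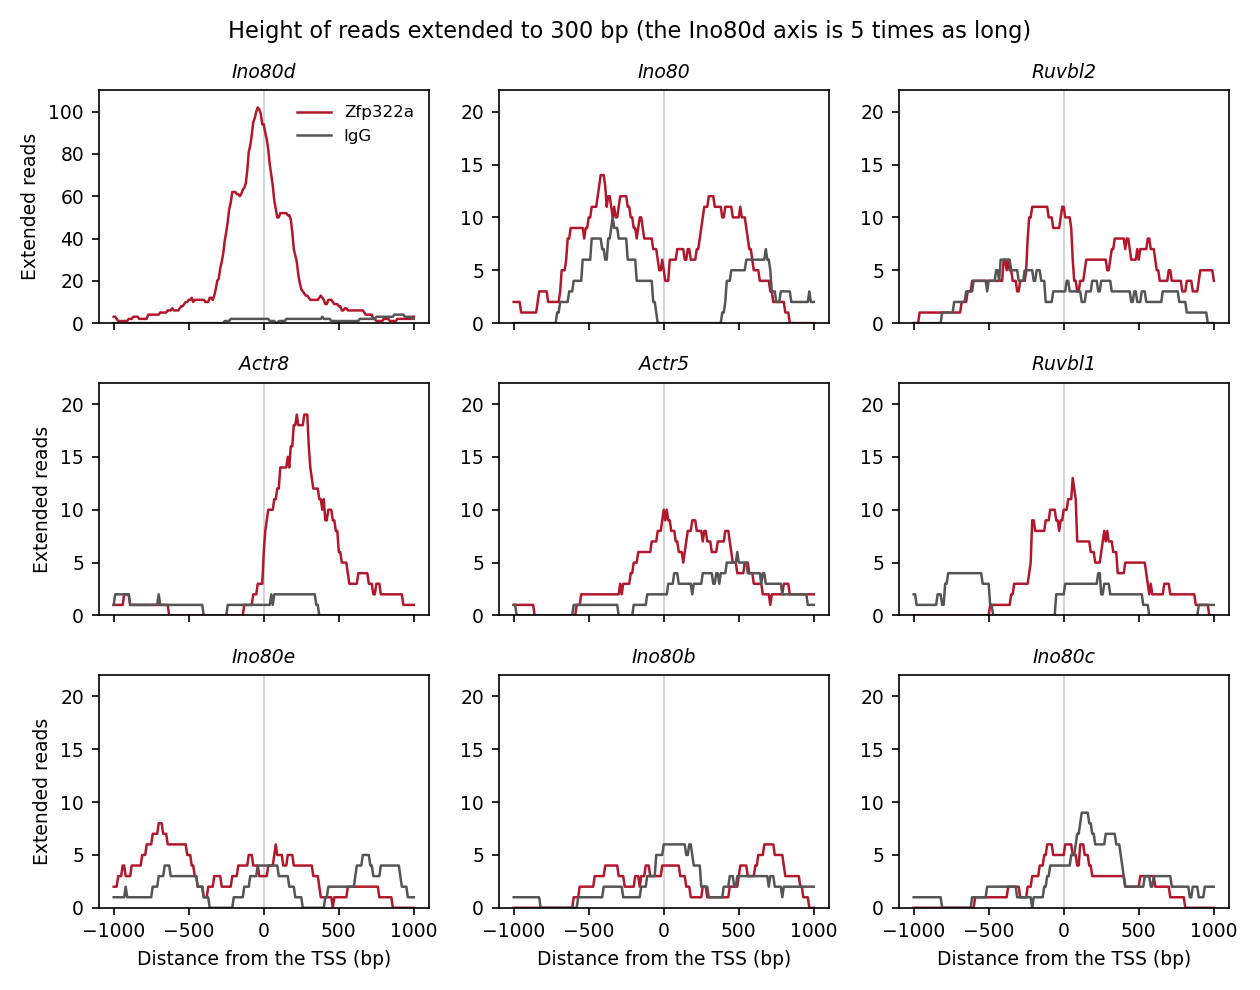
Height of reads extended to 300 bp (number of extended reads over a base) against the distance from the TSS in bp, positive in the direction of transcription, for the Zfp322a and IgG libraries at each INO80 subunit gene. *Ino80d* reached 103 on an axis 5 times as long as the others, whose Zfp322a heights ended between 6 and 19.

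The enrichment at *Ino80d* was concentrated at the TSS. Over the whole gene with 5 kb on each side, the Zfp322a library had 511 reads and the IgG library 354, a fold per read of 1.35 (1.18 to 1.55). The TSS windows held 28.4% of these Zfp322a reads and 2.82% of the IgG reads. Without the TSS windows, 366 and 344 reads remained and the fold was 0.994 (0.856 to 1.15).

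In the 180 bins of 1 kb over *Ino80d* and its flanks, the bins on either side of the TSS held 78 Zfp322a reads upstream, where the IgG library had 0, and 66 downstream. The next highest bin, 1.5 kb downstream, held 13, and the median was 2 in both libraries. No IgG bin exceeded 8 reads. A second stretch, 1284 bp downstream of the TSS, reached a Zfp322a height of 11 over an IgG height of 4 and missed the 3-fold criterion.

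**Figure D3:**
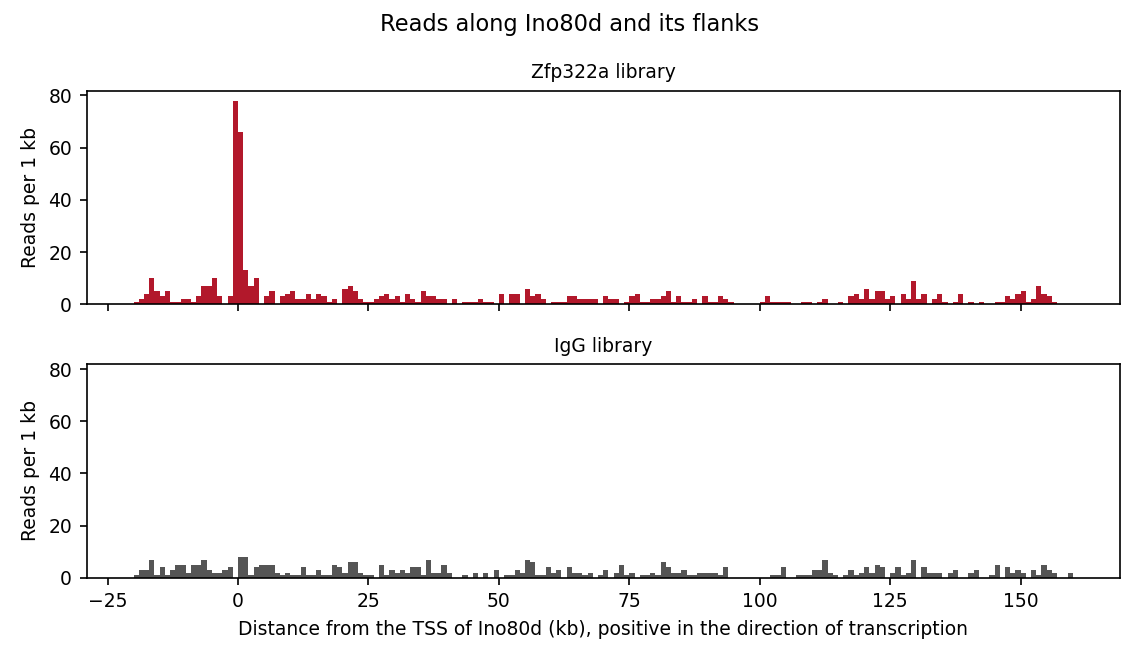
Reads per 1 kb in the Zfp322a library (top) and the IgG library (bottom) along *Ino80d* and its flanks, against the distance from the TSS in kb. The bins beside the TSS held 78 and 66 Zfp322a reads, and the highest IgG bin held 8.

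The window of *Ino80d* is shared with *Gm11602*, a long intergenic non-coding RNA gene on the opposite strand whose TSS lies upstream, at -204 bp. The summit was at -168 bp from the *Gm11602* TSS and at -36 bp from that of *Ino80d*, so reads at the promoter cannot be assigned to either gene.

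Among all other protein-coding genes, the 5 with reads most like those of *Ino80d* were *Zfx*, *Pcbp2*, *Dis3l*, *Kdelr1* and *Vcp*. Likeness was the distance between log2(reads + 1) in the 2 libraries. *Zfx*, which encodes a zinc finger protein, had 120 Zfp322a and 8 IgG reads (14.01-fold, distance 0.261), and *Pcbp2*, which encodes an RNA-binding protein, had 120 and 10 (11.2-fold, distance 0.390). *Pcbp2* was also close to *Ino80d* in shape, with a lag of 114.5 bp, 78.4% of reads on the expected side, 68.3% within 150 bp of the summit and a width of 358 bp. *Zfx* was broader, with 31.7% within 150 bp and a width of 506 bp. *Dis3l*, *Kdelr1* and *Vcp* had 119, 86 and 78 Zfp322a reads over 14, 13 and 13 IgG reads.

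The ATPase gene *Ino80* (chr2:119198778-119303423, reverse strand) had the most reads after *Ino80d*, 43 in the Zfp322a and 21 in the IgG library, a fold per read of 1.91 (1.11 to 3.39). Its IgG count was the highest of the 9 members. The Zfp322a profile had a maximum of 14 reads at -408 bp from the TSS, in a stretch where the IgG height reached 10, so that the fold of heights was 1.4 and no site was called. Stretches of 10 over 4 upstream and of 12 over 6 downstream of the TSS missed the 3-fold criterion as well; at 300 bp downstream the Zfp322a height was 12 and the IgG height 0. The Zfp322a reads of *Ino80* were thus spread on both sides of the TSS, and 27.9% of them lay within 150 bp of the summit.

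*Ino80b*, *Ino80c* and *Ino80e* were the members with the fewest Zfp322a reads. *Ino80b* (chr6:83071759-83075425, reverse strand), whose yeast counterpart stimulates the ATPase, had 15 Zfp322a and 14 IgG reads, a fold of 1.001 (0.450 to 2.24), and 0.654 with 500 bp on each side of the TSS. *Ino80c* (chr18:24263258-24280454, reverse strand), the partner of *Actr5* in the complex, had 13 and 18 reads and a fold of 0.675 (0.304 to 1.46). *Ino80e* (chr7:133995094-134005891, reverse strand), another subunit of the N-terminal module, had 21 and 15 reads and a fold of 1.31 (0.643 to 2.73).

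None of these 3 genes reached a height of 9 at a TSS: the Zfp322a heights were 6, 6 and 8. The median protein-coding gene had 12 Zfp322a and 8 IgG reads and a fold of 1.32, and the intervals of all 3 genes hold both 1 and 1.32. With 500 bp on each side of the TSS, *Ino80e* had 13 and 6 reads and a fold of 2.02. At *Ino80e* the summit was at -689 bp from the TSS and 555 bp inside *Hirip3*, which starts 134 bp away in the opposite direction. Outside its TSS windows, *Ino80b* had 1 stretch with heights of 10 and 3 that met the height and fold criteria. It lay 3463 bp downstream of the TSS, in the flank past the end of the gene. A taller stretch beside it, 3374 bp downstream, had heights of 11 and 4 and missed the 3-fold criterion.

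The actin-related subunit genes both had a site, but of different strength. *Actr8* (chr14:30791523-30806407, forward strand) encodes a subunit that contacts linker DNA, and had 28 Zfp322a and 6 IgG reads, the lowest IgG count of the members, a fold of 4.36 (1.77 to 12.9). That fold was 7.47 with 500 bp and 2.44 with 2000 bp on each side of the TSS, and with 150 bp the lower bound was 0.523. Its height of 19 over 2 was second among the 9 genes and ranked 239th of all genes. *Actr5* (chr2:158450624-158464947, forward strand), a subunit that contacts the nucleosome together with Ino80c, had 25 and 14 reads and a fold of 1.67 (0.834 to 3.47).

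The *Actr8* profile was displaced from the TSS and resembled that of *Ino80d* in its strands. Its summit lay 217 bp downstream, in the first coding exon, and 15 forward and 10 reverse reads were 122.5 bp apart, with 72.0% on the expected side. Of the reads, 53.6% were within 150 bp of the summit, and the width was 386 bp. Members without a site also had positive lags by this measure, from 102 bp (*Ino80*) to 424 bp (*Ino80e*). At *Ino80e* the overlap of the strands gave 126 bp. At *Ino80c* the lag of 157 bp became 48.5 bp within 300 bp of the summit, 34 bp by the overlap and -0.5 bp with all deposited reads. In the members without a site, shares on the expected side ran from 61.5% (*Ino80*) to 100% (*Ino80b*, 3 forward and 4 reverse reads). Such strand values, from few reads, were thus not confined to genes with a site. At *Actr5* the summit was 1 bp from the TSS and 10 reads high over an IgG height of 3, in a stretch of 58 bp, but the reverse reads lay to the left of the forward reads (lag of -53 bp) and 42.1% were on the expected side; the shift with the most overlap of the strands gave a lag of 62 bp, so the direction depended on the measure.

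*Ruvbl1* (chr6:88415403-88447566, forward strand) had 23 Zfp322a and 11 IgG reads, a fold of 1.95 (0.915 to 4.44), with a height of 13 over 3 and a summit 61 bp downstream of the TSS. Its 9 forward and 9 reverse reads were 88.0 bp apart, and 72.2% lay on the expected side; the lag was 55.5 bp within 300 bp of the summit and 23 bp by the overlap of the strands. Around its other TSS, *Ruvbl1* had 24 and 7 reads, a fold of 3.20 (1.34 to 8.80), so its fold depended on the window. *Ruvbl2* (chr7:52677222-52693466, reverse strand) had more reads, 33 and 18, at a fold of 1.71 (0.937 to 3.23). It had no site, since its height of 11 stood over an IgG height of 5. *Gys1*, the muscle glycogen synthase gene on the opposite strand, starts at -221 bp from *Ruvbl2*.

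**Figure D4:**
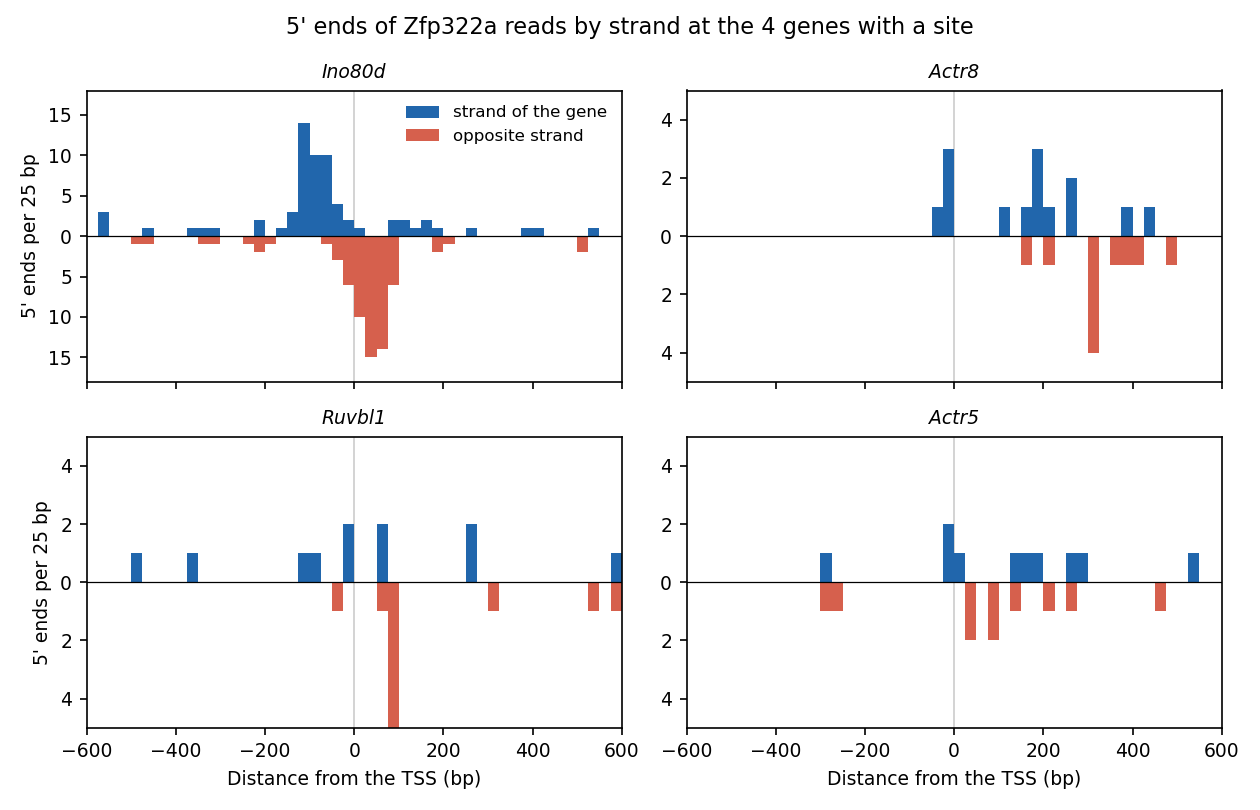
5′ ends of Zfp322a reads per 25 bp against the distance from the TSS in bp, for reads on the strand of the gene (upwards) and on the opposite strand (downwards), at the 4 genes with a putative binding site; the *Ino80d* axis is longer. The strands were 113.5 bp apart at *Ino80d*, 122.5 bp at *Actr8* and 88.0 bp at *Ruvbl1*, and the lag was -53 bp at *Actr5*; the values of *Ruvbl1* and *Actr5* changed with the measure.

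Some members lay near the criteria. Just inside were *Actr5*, with heights of 10 and 3 (3.33-fold), and *Ruvbl1*, with 13 and 3 (4.33-fold). Over the whole window the IgG height reached 6 at *Actr5*, against which its site would miss the 3-fold criterion, and 4 at *Ruvbl1*. Outside were *Ruvbl2*, with 11 and 5 (2.20-fold), and *Ino80*, whose tallest stretch was 14 over 10 and whose stretch nearest to the minimal fold was 10 over 4 (2.5-fold), at -154 bp. *Ino80e*, with a height of 8 over 4, missed both criteria. With a minimal fold of 9, *Ino80d* (34.3-fold) and *Actr8* (9.50-fold) were the 2 members left, and 2.55% of all protein-coding genes. A lower stretch of *Ruvbl1*, at -201 bp, had heights of 9 and 0 and was not judged, since it does not hold the highest point. The regions that the authors deposited, 925 by number, overlapped the TSS windows of the same 2 members, with 138 Zfp322a and 6 IgG reads at *Ino80d* (chr1:63160172-63161538) and 23 and 3 at *Actr8* (chr14:30791514-30792002). For the other 7 members there was no such region. The deposited regions are fewer than the 2524 distinct sites that the criteria gave at TSSs, so the lack of a region does not show that the authors had no site there.

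Without *Ino80d*, the other 8 members together had 201 Zfp322a and 117 IgG reads, a fold of 1.60 (1.27 to 2.03), where the sum over all protein-coding genes gave 1.42. The interval pools the reads of the 8 genes and leaves out the spread among them, with folds from 0.675 to 4.36. As the members were chosen on these reads, nothing is read from the pooled fold. The median fold of the 8 members was 1.69, against 1.32 for all genes. The lower bound exceeded 1 at *Actr8* and *Ino80*, and in 13.03% of all genes with reads (2762 of 21200). Which members passed depended on the window: with 500 bp on each side, *Actr5* (lower bound 1.02) and *Ruvbl1* (1.203) also did, and with 2000 bp *Ino80* did not (0.837) and *Ruvbl2* did (1.10). The share of all genes is given for 1000 bp on each side only, so nothing is read from which members passed. *Ino80d* alone supplied 144 of the 345 Zfp322a reads of the 9 members and 8 of the 125 IgG reads.

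Over whole genes with 5 kb on each side, the folds of the members lay closer together, from 1.08 to 1.63. Their median was 1.24, and the lower bound exceeded 1 at *Ino80d* and at *Actr8*, which had 91 and 52 reads (1.63-fold, 1.15 to 2.34). Without the TSS windows the folds ran from 0.994 to 1.28, and no lower bound exceeded 1. The share of all genes with a lower bound above 1 is not given for whole genes, so nothing is read from these counts. *Ino80c* lies on chromosome 18, where the Zfp322a library had 0.843 times the share of reads of the IgG library; on the chromosomes of the other members this ratio was 0.979 to 1.04. Divided by the reads of chromosome 18 instead of the library totals, the *Ino80c* TSS had a fold of 0.8003 (0.361 to 1.73), still below 1. In surroundings of 500 kb the fold per read varied more than by chromosome, from 0.834 at *Actr8* to 1.29 at *Ino80e*. The whole-gene folds of *Ino80*, *Ino80b*, *Ino80e* and *Ruvbl2* were below those of their surroundings, and those of the other members above. No fold given here was divided by that of the surroundings.

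**Figure D5:**
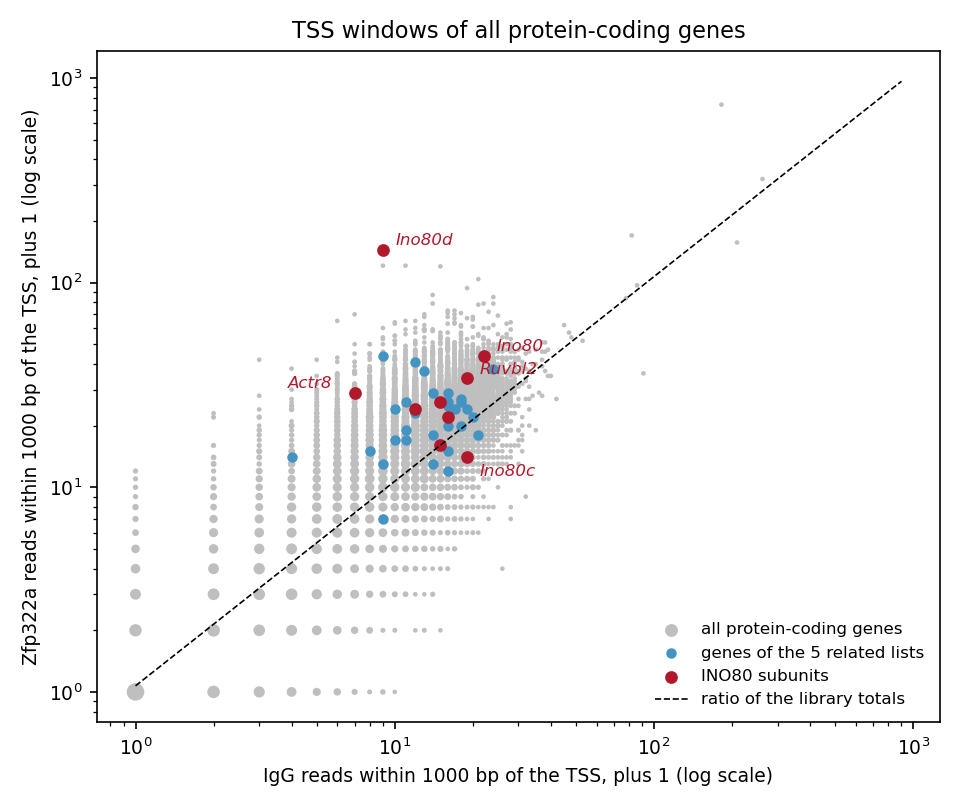
Zfp322a against IgG reads within 1000 bp of the TSS, each plus 1 on log axes, for all protein-coding genes (grey, larger where more genes share a value), 30 genes of 5 related lists (blue) and the 9 INO80 subunits (red); the dashed line is the ratio of the library totals. *Ino80d*, at 144 and 8 reads, stands apart from the other members, which had 13 to 43 Zfp322a reads; the 95th percentile of all genes was 33.

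The remaining subunits of INO80 and the complexes that share its parts were described with lists of 30 genes. Of 7 other INO80 subunit genes, 2 had a site: *Uchl5*, a deubiquitinase, with 40 Zfp322a and 11 IgG reads (3.40-fold, heights 11 and 2), and *Nfrkb*, a regulator of that enzyme, with 23 and 9 reads (2.39-fold). *Actl6a*, *Actb*, *Yy1*, *Mcrs1* and *Tfpt* had none. The median fold of the 7 genes was 1.66. None of these 7 genes had a height above 11.

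Of 6 SRCAP genes, which belong to the complex that deposits H2A.Z, 1 had a site, *Znhit1* (25 and 15 reads, heights 9 and 3). *Actr6* had the highest fold of that list, 4.05 (1.11 to 22.1), from 13 and 3 reads, and the median fold was 1.30. Of 12 genes of the TIP60 acetyltransferase complex, 4 had a site, *Kat5*, *Trrap*, *Mrgbp* and *Meaf6*. *Trrap*, its large scaffold, had the highest fold of these, with 36 and 12 reads (2.80-fold, heights 17 and 3), and the median of the list was 1.49. The catalytic subunit gene *Kat5* had 28 and 15 reads, *Mrgbp*, annotated as *1600027N09Rik*, 26 and 17, and *Meaf6* 25 and 10.

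The R2TP partners of the Ruvbl proteins, *Pih1d1* (19 and 17 reads, 1.04-fold) and *Rpap3* (6 and 8 reads), had no site and a median fold of 0.872. Of 3 histone variant genes, *H2afx*, which encodes H2A.X, had 43 and 8 reads, a fold of 5.02 (2.33 to 12.4) and a height of 21 over 4. The genes for H2A.Z, *H2afz* (17 and 20 reads) and *H2afv* (18 and 10 reads), had none. In all, 8 of the 30 genes (26.7%) had a site, beside 12.8% of all protein-coding genes, with a median fold of 1.49. That count was not stable: with a minimal height of 15 it was 2 of 30, beside 3.19% of all genes, and with a minimal fold of 9 it was 1, beside the 2.55% given above. The highest IgG heights of the whole window were 5 at *Uchl5*, *Znhit1* and *Meaf6*, 4 at *Nfrkb* and 7 at *Mrgbp*. Against those heights, the sites of these genes would miss the 3-fold criterion.

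The promoters of the members with a site differed in sequence. The 100 bp around the middle of the *Actr8* strand medians (chr14:30791727-30791826, forward strand) run from the first coding exon into the first intron. A match to the letters searched for motif 1 of the study is in capitals. The 60 bp with the most A before the *Actr8* TSS (chr14:30791417-30791476, forward strand) are shown with A in capitals. For *Ruvbl1* (chr6:88415343-88415402, forward strand) and *Actr5* (chr2:158450504-158450623, forward strand) the bases directly before the TSS are shown, with CCAAT in capitals at *Ruvbl1* and GGGCGG at *Actr5*.
Actr8, middle of the strands: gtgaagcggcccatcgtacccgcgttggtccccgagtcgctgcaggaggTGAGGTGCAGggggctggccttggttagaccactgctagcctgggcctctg
Actr8, A-rich stretch: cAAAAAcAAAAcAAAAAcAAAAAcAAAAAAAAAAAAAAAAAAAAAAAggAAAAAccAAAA
Ruvbl1, before the TSS: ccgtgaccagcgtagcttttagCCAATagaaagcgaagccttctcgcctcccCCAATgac
Actr5, before the TSS: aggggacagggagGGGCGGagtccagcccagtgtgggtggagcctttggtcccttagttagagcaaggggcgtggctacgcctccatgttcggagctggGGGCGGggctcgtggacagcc

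G and C content varied among the members with a site. The TSS window of *Actr8* had 48.6% G and C and that of *Ruvbl1* 47.8%, below the median of 51.6%, whereas *Ino80* had 61.5% without a site. The *Actr8* middle had 67.0% G and C and 6 CpG dinucleotides. Its A-rich stretch, from -106 to -47 bp, had 51 A in 60 bases.

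Letters were searched on both strands from -250 to +50 bp of the TSS, and overlapping matches counted once per promoter. An A-rich stretch of 12 bases with at least 10 A, taken for motif 2 of the study, was present at 4 members, *Ino80d*, *Actr8*, *Ruvbl1* and *Ino80c*, and in 12.7% of all promoters; at *Ino80c* the fold was 0.675. Motif 1 matched at *Ino80c* and *Ruvbl2* (18.1% of all promoters) and motif 3 at none (1.38%). GGGCGG was present at all members but *Actr8* and in 45.5% of all promoters.

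CCAAT was found at *Actr8*, *Ruvbl1* and *Ruvbl2* (37.04% of all promoters), CCGGAAGT at *Ino80b* and *Ino80e* (5.01%) and ATGGCG at *Ino80* (11.2%). CACGTG (7.83% of all promoters), GCATGCGC (3.37%) and CTCGCGAG (1.18%) were found at none. ATGGCG is also part of motif 3, as the letters of motifs 1 and 3 were read from the sequence logos of the study. In this window, none of the letters searched were found at all 4 members with a site and at no other member. In the 300 bp around the summit, motif 2 was found at *Ino80d* (8.77% of all summits), and motif 1 at *Ino80*, *Actr8* and *Ruvbl2* (19.7%). There CACGTG was found at *Ino80e* and *Ruvbl1* (6.96%), and GGGCGG at all members but *Ino80b* and *Ino80e* (35.8%). CCGGAAGT was found there at *Ino80* and *Ino80c* (3.53%), ATGGCG at *Ino80c* and *Ino80e* (12.8%) and CCAAT at *Ino80e*, *Ruvbl1* and *Ruvbl2* (31.5%), and motif 3, GCATGCGC and CTCGCGAG at none (1.26%, 2.26% and 0.873%).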

How the data were processed

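The authors prepared 1 Zfp322a and 1 IgG ChIP-seq library from E14 cells and deposited the positions of mapped reads (mm9, mostly 36 bp) with a mapping quality score each, and the start coordinates of reads inside numbered regions. The submitters' processing notes name CASAVA 1.4, BWA and Partek 6.6. No 2 reads of a library shared position and strand; removal of duplicates is not given in the sources used here.

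From the deposited reads, 5′ ends with a score of at least 25 were counted at TSSs and over genes, and extended to 300 bp for heights (an IgG height of 0 was taken as 1). Folds carry exact Clopper-Pearson intervals of the conditional binomial. scipy 1.17.1, matplotlib 3.10.9, pandas 2.3.3 and numpy 2.4.6 under Python 3.11.15 were used. Named were all members, list genes with a site or the highest fold of their list, the 5 genes most like *Ino80d* and neighbours within 1000 bp; other genes named were chosen after their values were seen. The members and lists were chosen with earlier results of these data known. No *Ino80c* sequence is shown.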

Additional observations from a re-analysis of the deposited data

How the results depend on the processing

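No paired analysis was possible because there was 1 library per antibody, and for the same reason no library could be left out. The whole-gene fold of *Ino80d* turned to 0.994 without the TSS windows, by construction, since the peak was removed. The *Ino80b* TSS fold, 1.001, was below 1 in 4 alternatives (0.654, 0.934, 0.778 and 0.623), each with an interval that holds 1. The *Ino80d* TSS fold was 7.47 (160 and 20 reads) in 2000 bp on each side, a window that adds flanking reads, and between 16.8 and 29.9 otherwise. The 4 members with a site became 2 (*Ino80d* and *Actr8*) with a minimal height of 15 (3.19% of all genes) or a minimal fold of 9 (2.55%), judged at the highest stretch. The 8 list genes became 5 with a minimal height of 11, 2 with a height of 15, 1 with a fold of 9, 2 with a fragment size of 200 bp and 2 with 150 bp (all genes: 8.11%, 3.19%, 2.55%, 9.76% and 6.90%); the last size, and a window of 150 bp on each side, were chosen after seeing the data. In that window the folds of *Actr5* and *Ruvbl1* were 4.67 and 6.07, from 2 IgG reads each. A height of 11 exchanged *Actr5* for *Ruvbl2*, a size of 200 bp added *Ruvbl2* and 150 bp removed *Actr5*. The width of the *Ino80d* peak was 214 bp with a size of 200 bp, as the width follows the extension, and its lag was 113.5 to 128 bp in all alternatives run; that of *Actr5* turned from -53 to 62 bp and that of *Ruvbl1* from 88 to 23 bp by the overlap of the strands. Among members without a site, the lag of *Ino80c* went from 157 to -0.5 bp with all deposited reads. That of *Ino80e* went from 424 to 126 bp by the overlap of the strands. Depth limits all members: a site of 9 reads rests on 9 fragments, and the *Ino80d* fold rests on 8 IgG reads (8.31 to 39.7). The cause of the other changes was not tested.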
